A study of Homo sapiens with 12 samples.

Results

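RASSF6, COBLL1, NEBL and LOC107984408 are 4 genes whose RNA was higher after the SYK inhibitor and lower after the BET inhibitor when SU-DHL-4 lymphoma cells received either agent alone. They were picked by symbol from the 46863 genes of the count table because of these opposite single-agent responses, and all 4 passed the low-count filter that left 16835 genes for testing. The values that chose them are therefore given as a description without a test, and the question put to the data is where their RNA lay when both agents were present. SU-DHL-4 is an established human diffuse large B-cell lymphoma line of the germinal-centre type, labelled wild type and derived from a peritoneal effusion, so that every value describes a single cell line. Cells were exposed for 72 h to DMSO (the solvent, used as control), to 1 µM Entospletinib (Ento), to 0.01 µM AZD5153 (AZD), or to 1 µM Ento together with 0.01 µM AZD (Ento+AZD). Ento inhibits the kinase SYK, and AZD is a bivalent inhibitor of the BET proteins. Poly-A RNA of 3 libraries per group, numbered 1 to 3 in the labels and named biological replicates in the series description, was sequenced, giving 12 libraries.

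SYK relays the signal of the B-cell receptor to downstream kinases and transcription factors. BET proteins bind acetylated histones through their bromodomains and recruit the machinery that lets RNA polymerase II elongate, so their inhibition lowers many transcripts driven by strong enhancers. RASSF6 is a Ras-association domain protein that binds the MST kinases of the Hippo pathway and has been linked to apoptosis. COBLL1 is a relative of the actin nucleator cordon-bleu and carries an actin-binding WH2 domain. NEBL encodes nebulette, a nebulin-family protein of the cardiac Z-disc, and also a shorter LIM and SH3 domain isoform found outside muscle. LOC107984408 is an uncharacterized locus.

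In GRCh38, RASSF6 lies on the minus strand of chromosome 4 (73571550 to 73620631, 5 annotated transcripts), COBLL1 on the minus strand of chromosome 2 (164653624 to 164843679, 25 transcripts) and NEBL on the minus strand of chromosome 10 (20779973 to 21293011, 24 transcripts), all as protein-coding genes. RASSF6, COBLL1 and NEBL thus do not share a locus. LOC107984408 had no entry in the annotation used, so its place is not given. Exons of NEBL-AS1 and of the pseudogene LUZP4P1 overlap NEBL exons on the opposite strand. Whether the strand was used in counting is not stated, so reads from either strand could not be told apart there. NEBL-AS1 had 0 counts in every library. One RefSeq start-site window each (250 bases before the start to 50 bases after it, GRCh38.p14, minus strand, written 5′ to 3′) is shown for the genes with an entry, because their RNA moved together and these are the stretches that were compared for shared letters. Capitals mark the only matches found among the 5 motifs searched, with RASSF6 at chr4:73620582-73620881, COBLL1 at chr2:164842027-164842326 and NEBL at chr10:21174042-21174341.

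RASSF6: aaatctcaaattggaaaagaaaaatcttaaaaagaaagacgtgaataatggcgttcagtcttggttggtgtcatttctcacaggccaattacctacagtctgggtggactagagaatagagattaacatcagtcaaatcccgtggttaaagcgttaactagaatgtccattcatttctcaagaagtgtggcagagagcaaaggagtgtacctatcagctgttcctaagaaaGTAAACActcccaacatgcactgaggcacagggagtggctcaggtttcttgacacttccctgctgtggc
COBLL1: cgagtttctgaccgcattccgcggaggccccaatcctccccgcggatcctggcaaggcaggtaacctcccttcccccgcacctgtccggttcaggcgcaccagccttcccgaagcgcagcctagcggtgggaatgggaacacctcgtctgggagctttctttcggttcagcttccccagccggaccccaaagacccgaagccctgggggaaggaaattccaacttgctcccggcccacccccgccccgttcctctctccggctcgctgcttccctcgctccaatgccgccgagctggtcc
NEBL: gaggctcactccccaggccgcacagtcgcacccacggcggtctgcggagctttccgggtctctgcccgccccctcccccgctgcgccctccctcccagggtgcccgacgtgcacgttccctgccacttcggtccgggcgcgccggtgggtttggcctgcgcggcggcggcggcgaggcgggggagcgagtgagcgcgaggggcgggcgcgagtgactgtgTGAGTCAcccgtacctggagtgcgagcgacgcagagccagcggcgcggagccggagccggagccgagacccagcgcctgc

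Motifs were searched on both strands as exact letters. The forkhead motif GTAAACA stood in both RASSF6 windows, which overlap and hold the same site (chromosome 4, 73620644 to 73620650), and in none of the 3 COBLL1 or 5 NEBL windows. Of all 35116 RefSeq windows, 3.42% held it. The AP-1 motif TGACTCA stood, in its reverse reading, in 1 of the 5 NEBL windows (chromosome 10, 21174115 to 21174121) and in no RASSF6 or COBLL1 window, against 4.95% of all windows. The E-box CACGTG was in no window of these genes and in 7.26% of all windows. The same held for the ETS motif CCGGAAG, which 10.3% of all windows contain. The TATA box, searched as TATAAA, was likewise in no window of these genes and in 11.5% of all windows. No motif was shared by 2 of the genes in the stretches searched, and a match of letters is no evidence of binding.

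The libraries held 18121993 to 24675830 counts, so 1 count was worth 0.0393 to 0.0564 CPM (read counts scaled to a fixed library total with the TMM factors). B-cell markers summed to between 3510 and 7313 CPM and germinal-centre markers to between 1185 and 1692 CPM in all libraries, with all 11 of these genes detected. The 6 T-cell markers, all but CD3E and TRAC at or near 0, summed to 5.42 to 6.40 CPM with DMSO, 4.61 to 7.99 with Ento, 1.71 to 3.58 with AZD and 1.91 to 2.69 with Ento+AZD, so this low sum was lower in both groups given AZD. The 5 fibroblast and mesothelium markers, nearly all of it DCN and with COL1A2 at 0, summed to 53.1 to 93.3 CPM with DMSO, 63.7 to 126 with Ento, 37.1 to 75.8 with AZD and 38.1 to 68.4 with Ento+AZD. DCN itself, the gene of the proteoglycan decorin, averaged 77.0, 92.6, 53.4 and 56.4 CPM in this order, the same order of Ento over DMSO over AZD as in the 4 genes. The 3 plasma-cell markers, mostly TNFRSF17, summed to 12.9 to 18.2 CPM with DMSO, 14.4 to 19.1 with Ento, 6.43 to 14.1 with AZD and 6.32 to 13.7 with Ento+AZD, and the 4 myeloid markers to at most 2.72 CPM in any library. The part of these markers in the results below was not tested. In bulk RNA, fewer cells with a transcript and less transcript per cell cannot be told apart. Levels are CPM, given as mean ± SD of 3 libraries, and a gene is said to differ at an adjusted p under 0.05 and is called a DEG when its log2 fold change also exceeds 1 in size.

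RASSF6 had the widest single-agent swing of the 4 genes on the log2 scale, and with both agents it was back at the level of the DMSO libraries. Replicates 1, 2 and 3 had 7.23, 7.51 and 11.3 CPM with DMSO, 28.3, 22.5 and 60.6 CPM with Ento, 1.85, 1.02 and 1.31 CPM with AZD and 6.16, 8.10 and 9.31 CPM with Ento+AZD. The Ento libraries were all above and the AZD libraries all below every other library, whereas the DMSO and Ento+AZD libraries overlapped. Gaps between the DMSO, Ento and AZD libraries are favoured by the choice, here and in the genes below. The group means were 8.69 ± 2.28 CPM with DMSO, 37.1 ± 20.5 CPM with Ento, 1.39 ± 0.426 CPM with AZD and 7.86 ± 1.59 CPM with Ento+AZD. As a description of what chose the gene, Ento alone raised it 4.08-fold over DMSO (log2 fold change 2.03, SE 0.20) and AZD lowered it 6.03-fold (log2 fold change -2.59, SE 0.28).

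**Figure D1:**
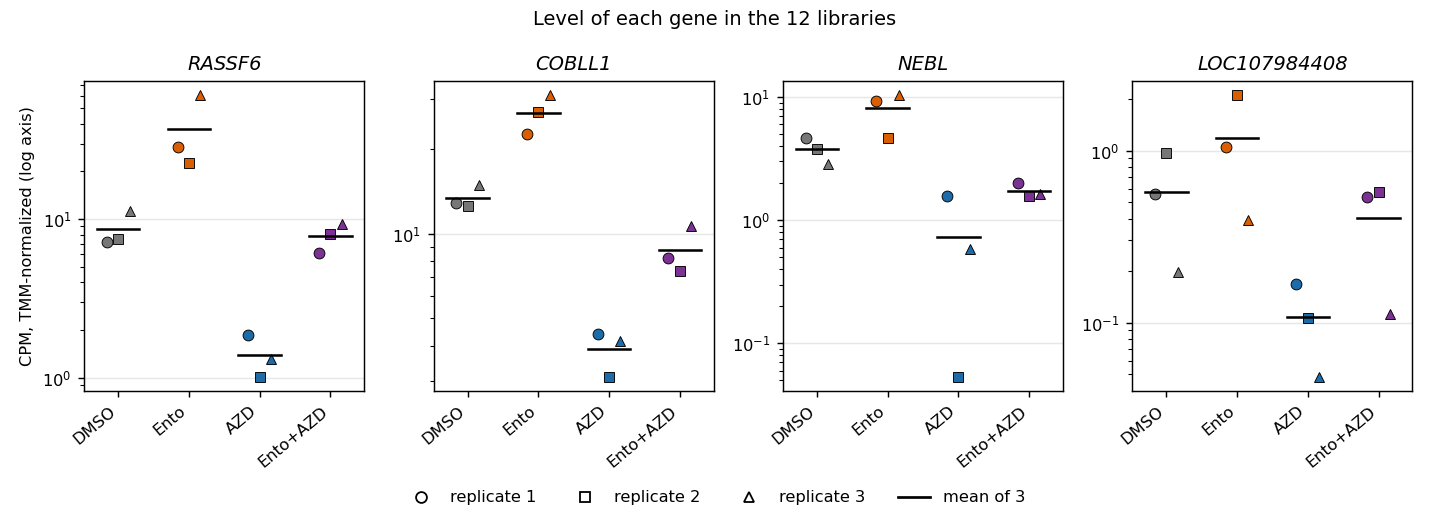
Level of RASSF6, COBLL1, NEBL and LOC107984408 in the 12 libraries, in CPM on log axes that differ between panels, with one symbol per library by replicate number and a line at the mean of 3. In every panel the Ento mean is the highest and the AZD mean the lowest, and the Ento+AZD mean lies close to the DMSO mean for RASSF6 and below it for COBLL1 and NEBL.

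Compared with DMSO, RASSF6 with Ento+AZD had a log2 fold change of -0.12 (SE 0.22, 95% confidence interval -0.59 to 0.35), which edgeR's quasi-likelihood test did not separate from 0 (Benjamini-Hochberg adjusted p = 0.6935). The sign of this difference was not fixed, since the log2 fold change was 0.032 without Ento+AZD replicate 3. The same combination libraries were 4.43-fold below Ento (log2 fold change -2.15, SE 0.21, edgeR adjusted p = 0.0001031) and 5.55-fold above AZD (log2 fold change 2.47, SE 0.28, edgeR adjusted p = 0.0003184). Both differences held for every replicate number, ranging over the 3 numbers from -2.64 to -1.42 against Ento and from 1.501 to 2.505 against AZD on the log2(CPM + 0.5) scale. Without the replicate term the edgeR adjusted p was 0.01663 against Ento and 0.04925 against AZD. The Ento and AZD libraries helped to choose the genes, which favours differences from them, and this holds for all such comparisons below. The DMSO libraries, as the control of both single-agent comparisons, entered the choice too. Comparisons with DMSO are therefore not free of it either.

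COBLL1 stayed below DMSO when both agents were present, and its coefficient of variation within a group was only 9.56% to 19.6%. Its libraries had 12.8, 12.5 and 14.9 CPM with DMSO, 22.5, 27.0 and 31.0 CPM with Ento, 4.38, 3.10 and 4.16 CPM with AZD and 8.17, 7.39 and 10.7 CPM with Ento+AZD. No library of any group overlapped another group, in the order Ento, DMSO, Ento+AZD, AZD. The choice of the gene favours the gaps between Ento, DMSO and AZD, and the share of all genes separated in this way was not counted. The means were 13.4 ± 1.28 CPM with DMSO, 26.9 ± 4.26 CPM with Ento, 3.88 ± 0.686 CPM with AZD and 8.74 ± 1.71 CPM with Ento+AZD. The single-agent log2 fold changes that chose it were 1.00 (SE 0.12) with Ento and -1.77 (SE 0.14) with AZD.

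With Ento+AZD, COBLL1 was 1.54-fold below DMSO (log2 fold change -0.62, SE 0.13, edgeR adjusted p = 0.001602), which passed the test but not the fold limit of a DEG. It was 3.09-fold below Ento (log2 fold change -1.63, SE 0.13, edgeR adjusted p = 2.83e-05) and 2.22-fold above AZD (log2 fold change 1.15, SE 0.14, edgeR adjusted p = 0.0005367). The DMSO, Ento and AZD libraries all helped to choose the gene. Each of these 3 differences had its direction in 3 of 3 replicate numbers. None was lost when any 1 of the 12 libraries was left out. Without the replicate term they passed less clearly, with edgeR adjusted p of 0.03979 against DMSO, 0.003331 against Ento and 0.04925 against AZD.

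NEBL had the lowest level with both agents relative to DMSO of the 4 genes. Replicates 1, 2 and 3 had 4.65, 3.80 and 2.87 CPM with DMSO, 9.25, 4.66 and 10.4 CPM with Ento, 1.56, 0.0534 and 0.581 CPM with AZD and 2.01, 1.57 and 1.64 CPM with Ento+AZD. The AZD libraries were the most uneven, with 37, 1 and 12 counts, and replicate 1 of AZD at 1.559 CPM nearly met replicate 2 of Ento+AZD at 1.572 CPM. Ento replicate 2 was likewise only just above DMSO replicate 1, at 4.658 against 4.650 CPM. The means were 3.77 ± 0.891 CPM with DMSO, 8.09 ± 3.02 CPM with Ento, 0.731 ± 0.764 CPM with AZD and 1.74 ± 0.234 CPM with Ento+AZD, and the choosing log2 fold changes were 1.07 (SE 0.31) with Ento and -2.36 (SE 0.42) with AZD.

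With Ento+AZD, NEBL was 2.17-fold below DMSO (log2 fold change -1.12, SE 0.37, edgeR adjusted p = 0.02566) and was the only one of the 4 genes that was a DEG there. This call depended on single libraries, since the edgeR adjusted p was 0.1262 without Ento+AZD replicate 1, 0.1164 without DMSO replicate 2 and 0.07929 without Ento+AZD replicate 3, and on the replicate term, since it was 0.1545 in a fit without it. NEBL was 4.56-fold below Ento (log2 fold change -2.19, SE 0.35, edgeR adjusted p = 0.0009724, and 0.06076 without the replicate term). Against AZD its log2 fold change was 1.24 (SE 0.47, 95% confidence interval 0.24 to 2.24), which missed the threshold after adjustment (edgeR adjusted p = 0.09875). Without AZD replicate 1 this difference was 2.29 and passed (edgeR adjusted p = 0.03436).

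LOC107984408 was counted too rarely to place as firmly as the others. The counts of replicates 1, 2 and 3 were 14, 21 and 5 with DMSO, 25, 41 and 8 with Ento, 4, 2 and 1 with AZD and 11, 12 and 2 with Ento+AZD. Replicate 3 had the lowest count in every group, so the groups overlapped except that all AZD libraries were below all DMSO and all Ento libraries. The means were 0.572 ± 0.383 CPM with DMSO, 1.18 ± 0.860 CPM with Ento, 0.108 ± 0.0601 CPM with AZD and 0.408 ± 0.256 CPM with Ento+AZD. The choosing log2 fold changes, fitted within replicate numbers, were 1.02 (SE 0.29) with Ento and -2.27 (SE 0.46) with AZD.

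The log2 fold change of LOC107984408 with Ento+AZD against DMSO was -0.47 (SE 0.35, 95% confidence interval -1.22 to 0.28), and the test did not separate it from 0 (edgeR adjusted p = 0.3105). It was 2.81-fold below Ento (log2 fold change -1.49, SE 0.32, edgeR adjusted p = 0.005154) and 3.48-fold above AZD (log2 fold change 1.80, SE 0.50, edgeR adjusted p = 0.03119). Neither call held without the replicate term, with edgeR adjusted p of 0.2618 against Ento and 0.4656 against AZD. The call against Ento was lost without Ento replicate 2 (edgeR adjusted p = 0.05541) or Ento+AZD replicate 2 (0.06119). The call against AZD was lost without any 1 of the 6 libraries compared, with edgeR adjusted p of 0.07002, 0.2236 and 0.05579 without AZD replicates 1, 2 and 3 and of 0.1377, 0.06031 and 0.0551 without Ento+AZD replicates 1, 2 and 3.

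Across the 4 genes, 2 (COBLL1 and NEBL) were lower and 0 higher with Ento+AZD than with DMSO, where 40% of all genes tested differed, 20.8% being lower and 19.2% higher. NEBL alone was a DEG, where 4.89% of all genes were underexpressed DEGs. A share of 2 in 4 is near that background. All 4 were lower than with Ento, where 20.4% of all genes differed and 12.2% were lower, and 3 were higher than with AZD, where 11.9% differed and 5.85% were higher. These comparisons share libraries with each other and with the choice of the genes. Their median log2 fold change was -0.55 against DMSO, -1.89 against Ento and 1.52 against AZD, whereas the median of all genes tested was 0.010, -0.0077 and -0.0022.

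**Figure D2:**
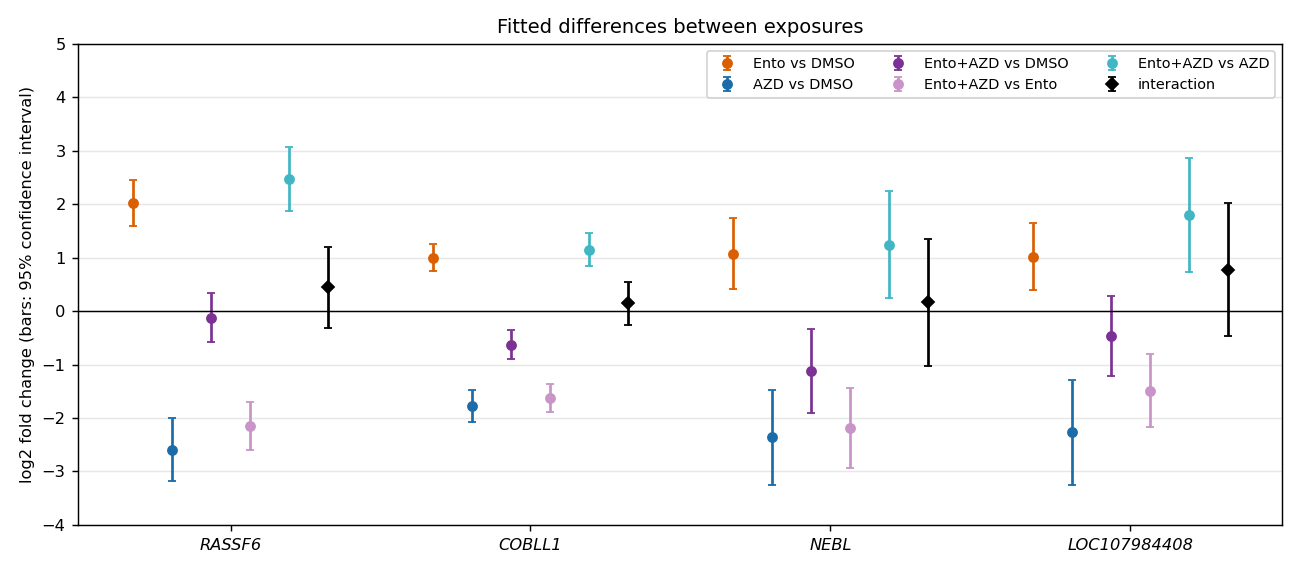
Fitted log2 fold changes of the 4 genes for each comparison, with 95% confidence intervals as bars, where the interaction is the combination's log2 fold change minus the sum of both single-agent ones. The Ento+AZD vs DMSO interval spans 0 for RASSF6 and LOC107984408 and lies below 0 for COBLL1 and NEBL, and all 4 interaction intervals span 0.

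The combination was also set against the sum of both agents as an interaction, the log2 fold change of the combination minus the sum of both single-agent log2 fold changes. The sum was -0.57 for RASSF6, -0.77 for COBLL1, -1.29 for NEBL and -1.25 for LOC107984408, and all 4 combinations lay above it. The interaction was 0.45 (SE 0.35, 95% confidence interval -0.31 to 1.20) for RASSF6, 0.15 (SE 0.19, -0.25 to 0.55) for COBLL1, 0.17 (SE 0.56, -1.02 to 1.36) for NEBL and 0.78 (SE 0.58, -0.46 to 2.02) for LOC107984408. The interaction subtracts the same single-agent values that chose the genes, so it is given as a description without a test, and its intervals do not allow for that choice. All 4 intervals span 0, and those of RASSF6, NEBL and LOC107984408 reach beyond 1. Of all 16835 genes, edgeR called 0 (0%) for interaction at a smallest adjusted p of 0.4443, with 1652 at an unadjusted p under 0.05, and DESeq2 called 7. The NEBL interaction changed sign without replicate 2 of DMSO (-0.12), Ento (-0.06) or AZD (-0.24).

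A position between the single agents, with 0 at the AZD level and 1 at the Ento level of the same replicate number on the log2(CPM + 0.5) scale, describes to which agent the combination lay nearer. Its end points and the DMSO position come from the libraries that helped to choose the genes. In the fit, each of these genes changed more with AZD than with Ento. Adding both single-agent log2 fold changes would by itself place such genes nearer AZD. The position is therefore a description and was not tested. RASSF6 with both agents stood at 0.511 ± 0.115, next to its DMSO position of 0.540 ± 0.0692. COBLL1 stood at 0.404 ± 0.0462, well below its DMSO position of 0.634 ± 0.0113. NEBL stood at 0.338 ± 0.236 against 0.667 ± 0.223 for DMSO, and LOC107984408 at 0.381 ± 0.148 against 0.546 ± 0.0572. COBLL1, NEBL and LOC107984408 thus lay on the AZD side of DMSO in each of the 3 replicate numbers, and RASSF6 in 2 of 3. On this scale, RASSF6 was near the middle between both agents, and COBLL1 was nearer AZD by more than the spread between replicate numbers, whereas for NEBL and LOC107984408 the spread was larger than the distance from the middle. On the linear CPM scale, where the Ento level weighs more, RASSF6 stood at 0.209 and COBLL1 at 0.210.

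Divided by the length of the longest annotated transcript (5.88 kb for RASSF6, 9.37 kb for COBLL1 and 8.93 kb for NEBL), the DMSO levels were 1.48 ± 0.388 CPM per kb for RASSF6, 1.43 ± 0.137 for COBLL1 and 0.423 ± 0.0998 for NEBL, so by this length RASSF6 and COBLL1 did not differ beyond their spread. The exons of all annotated transcripts together cover 6630 bases for RASSF6 and 17176 bases for COBLL1, so this likeness depends on the length used. With Ento+AZD the levels were 1.34 ± 0.270, 0.933 ± 0.183 and 0.195 ± 0.0262 CPM per kb. LOC107984408 had no annotated length and is not ranked.

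The 4 genes belong to a small class, and all 4 were by choice overexpressed DEGs with Ento (1.1% of all genes tested) and underexpressed DEGs with AZD (2.53%). Of the genes tested, 22 (0.131%) were overexpressed DEGs with Ento and underexpressed DEGs with AZD, and 2 (0.0119%), LINC02338 and the lymphocyte receptor gene SLAMF1, were the reverse. COBLL1 stood at the edge of this class, with a log2 fold change of 1.002 with Ento, and RIMS2 was just outside it, with 0.998 with Ento and -1.59 with AZD. At the adjusted p alone, 117 and 18 genes had opposite responses. The count of 22 was 10 without DMSO replicate 1, DMSO replicate 3 or AZD replicate 3, 11 without Ento replicate 3, 13 without Ento replicate 2 and 14 without Ento replicate 1. Without the replicate term it was 2, RASSF6 and COBLL1, and with DESeq2 it was 13, among them RASSF6 but not the other 3 genes.

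**Figure D3:**
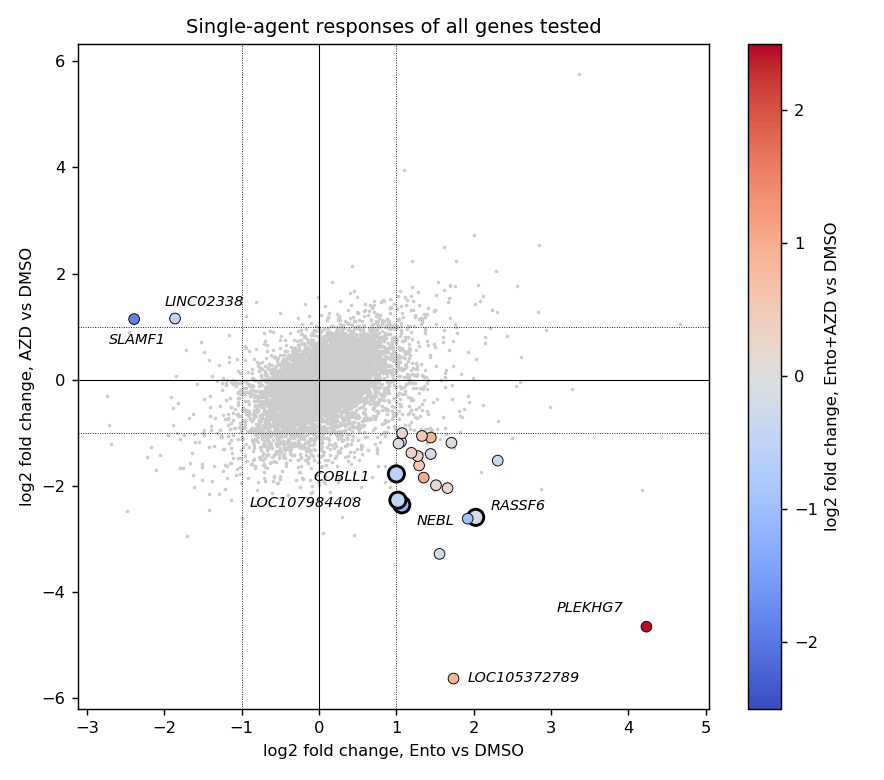
Log2 fold change of all 16835 genes tested with Ento (x axis) and with AZD (y axis) against DMSO, with dotted lines at the DEG limit of 1 and colour for the log2 fold change of Ento+AZD against DMSO in the genes with opposite DEG calls. RASSF6, COBLL1, NEBL and LOC107984408 (large symbols) lie in the lower right, where 22 genes were called, and 2 genes lie in the upper left.

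In all 22 genes the fitted level with both agents lay between those with the single agents, which the choice of genes with widely separated single-agent levels favours. Against DMSO, 2 were lower, COBLL1 and NEBL, 4 were higher, PLEKHG7, TRIM55, HRK and LOC105372217, and 16 did not pass. Of all genes tested, 40% differed there, 20.8% being lower and 19.2% higher. HRK, a pro-apoptotic BH3-only gene, and LOC105372217 are named after their values were seen. COBLL1 and NEBL were therefore the only ones of these 22 that ended on the AZD side of DMSO at this threshold, which is a description, since the contrast between them and the other genes was not tested. By sign alone, 9 of the 22 lay below DMSO and 13 above it. The NEBL call also depended on single libraries and on the replicate term, as given above. The fold limit matters here. Of the 117 genes with this pattern at the adjusted p alone, 10 were lower than DMSO, 21 were higher and 86 did not pass. Among the 22 and among the 117, the share that differed was below that of all genes tested. The 10 include ZNF280D (log2 fold change -0.65, SE 0.19, edgeR adjusted p = 0.01545). Fitted positions of the 117 ran from -0.293 to 1.154, so not all lay between the single agents. The position on the fitted scale ran from 0.308 for SUGCT to 0.901 for TRIM55, with a median of 0.601 over the 22. It was 0.535 for RASSF6, 0.414 for COBLL1, 0.362 for NEBL and 0.547 for LOC107984408. For LOC107984408, the fitted position and the one on the log2(CPM + 0.5) scale (0.381) lie on opposite sides of the middle, so its nearer agent depended on how its low counts were handled.

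**Figure D4:**
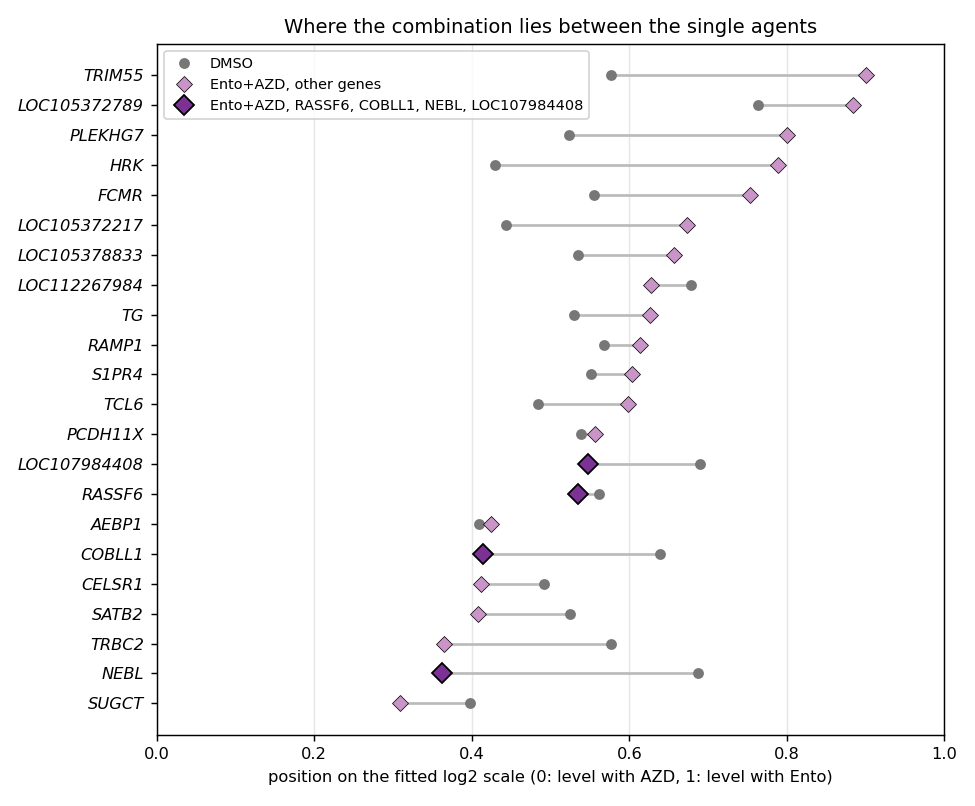
Position of the Ento+AZD level (diamonds) and the DMSO level (grey circles) between the AZD level (0) and the Ento level (1) on the fitted log2 scale, for the 22 genes higher with Ento and lower with AZD. COBLL1 at 0.414 and NEBL at 0.362 lie left of their DMSO circles by wide gaps, RASSF6 at 0.535 lies beside its own, and TRIM55 at 0.901 lies furthest right.

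Other genes of the class ended elsewhere. TRIM55, a muscle RING-finger ubiquitin ligase gene, had 2.57 ± 1.66 CPM with DMSO, 6.28 ± 1.75 CPM with Ento, 0.694 ± 0.336 CPM with AZD and 5.02 ± 1.85 CPM with Ento+AZD, so that its combination level was 1.04 above DMSO on the log2 scale (SE 0.31, edgeR adjusted p = 0.01659) and not separated from Ento (log2 fold change -0.32, SE 0.29, edgeR adjusted p = 0.4764). PLEKHG7 had 0 counts in all 3 AZD libraries and an uneven 43, 132 and 7 counts with Ento (2.97 ± 3.36 CPM), and with Ento+AZD it had 0.837 ± 0.876 CPM against 0.145 ± 0.138 CPM with DMSO (log2 fold change 2.46, SE 0.43, edgeR adjusted p = 0.0007485). SUGCT, at the other end, had 1.08 ± 0.491 CPM with DMSO, 5.27 ± 1.98 CPM with Ento, 0.366 ± 0.194 CPM with AZD and 0.843 ± 0.524 CPM with Ento+AZD, and its difference from DMSO did not pass (log2 fold change -0.34, SE 0.40, edgeR adjusted p = 0.5241). S1PR4, a sphingosine-1-phosphate receptor gene, had a combination log2 fold change of 0.19 against DMSO (SE 0.28, edgeR adjusted p = 0.6126). TRBC2, whose reads may be shared with its near-identical copy TRBC1, LOC105372789, LOC112267984, RAMP1, CELSR1 and FCMR did not pass against DMSO either, with log2 fold changes of -0.96, 0.89, -0.24, 0.16, -0.23 and 0.58.

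Of the reverse pair, SLAMF1 passed against DMSO and LINC02338 did not. SLAMF1 had 1.74 ± 1.16 CPM with DMSO, 0.319 ± 0.0813 CPM with Ento, 3.72 ± 1.16 CPM with AZD and 0.433 ± 0.219 CPM with Ento+AZD, and was lower with both agents than with DMSO (log2 fold change -1.89, SE 0.42, edgeR adjusted p = 0.002937). LINC02338 with both agents was at 0.744 ± 0.359 CPM against 1.02 ± 0.246 CPM with DMSO (log2 fold change -0.49, SE 0.29, edgeR adjusted p = 0.1881).

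By the correlation of log2 CPM over the 12 libraries with the replicate number removed, the 4 genes resembled each other, with Pearson's r from 0.913 for RASSF6 and LOC107984408 to 0.966 for RASSF6 and COBLL1. The 12 points share the 4 exposures, for which the genes were chosen, so these values are a description. The genes most like RASSF6 were IL16 (r = 0.986), LOC105378833 (r = 0.983) and ISG20 (r = 0.983). IL16, a cytokine precursor gene, moved far less, from 71.0 ± 12.4 CPM with DMSO to 93.3 ± 10.4 CPM with Ento, 46.1 ± 9.48 CPM with AZD and 71.5 ± 16.5 CPM with Ento+AZD, and so had the same return to the DMSO level. The genes most like COBLL1 were NELL2 (r = 0.987), ZNF280D (r = 0.981) and KANK1 (r = 0.977), and in ZNF280D, a zinc-finger gene, the levels were 5.04 ± 0.684, 8.79 ± 3.23, 1.65 ± 0.746 and 3.23 ± 0.701 CPM in the order DMSO, Ento, AZD and Ento+AZD. APOL6 (r = 0.980), BTG4 (r = 0.976) and DPYD (r = 0.968) were most like NEBL, and RAMP1 (r = 0.978), MAP4K2 (r = 0.961) and COBLL1 itself (r = 0.957) most like LOC107984408.

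None of the tested relatives of these genes was called in opposite directions with the single agents. Of the other RASSF family genes, 6 were tested, and 0 of them differed with Ento (8.32% of all genes did) and 1 with AZD (22.2% of all genes), RASSF1, which had 25.8 ± 2.05 CPM with DMSO and 17.5 ± 1.52 CPM with AZD. With Ento+AZD, RASSF1 (log2 fold change -0.51, SE 0.09, edgeR adjusted p = 0.0007225) and RASSF4 (log2 fold change -1.38, SE 0.41, edgeR adjusted p = 0.01549) were lower and RASSF5 was higher (log2 fold change 0.24, SE 0.09, edgeR adjusted p = 0.0435), with a family median of 0.07, which makes 3 of 6 against 40% of all genes. RASSF1 with both agents was at 18.04 ± 0.861 CPM, 0.05 above AZD on the log2 scale (SE 0.10, edgeR adjusted p = 0.7811). Of 11 Hippo pathway genes tested, the scaffold gene SAV1 and the transcription factor gene TEAD2 were higher (log2 fold changes 0.37 and 0.48) and the upstream regulator NF2 was lower (-0.35) with Ento+AZD than with DMSO, where 40% of all genes differed, and the median was 0.02. TEAD2 was also higher with Ento alone (log2 fold change 0.74, SE 0.14, edgeR adjusted p = 0.006564), and with AZD it was at -0.42 (SE 0.15, edgeR adjusted p = 0.06066).

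Of 15 WH2-domain actin regulators beside COBLL1, 5 were lower with Ento+AZD, among them the formin INF2 (log2 fold change -0.77, SE 0.09, edgeR adjusted p = 2.111e-05), WASL, WASF2, WIPF2 and PXK, and 2 were higher, WIPF1 and MTSS2, with a median of -0.06, against 40% of all genes that differed there. With Ento alone, 0 of the 15 differed, against 8.32% of all genes. Both shares are near those of all genes. Of 10 genes of the nebulin family and its filament partners beside NEBL, 4 were lower, the tropomyosin genes TPM1 (-0.97) and TPM4 (-1.34), ZYX (-0.57) and TMOD3 (-0.37), and 0 were higher. The median of the 10 was -0.08, and their share equalled the 40% of all genes. TPM4, which codes for a non-muscle tropomyosin, went from 190 ± 23.4 CPM with DMSO to 149 ± 27.2 CPM with Ento, 98.3 ± 13.4 CPM with AZD and 74.6 ± 5.80 CPM with Ento+AZD, so that both agents lowered it, unlike NEBL (edgeR adjusted p = 0.02442 with Ento, 8.321e-05 with AZD and 1.708e-06 with both). SYK, the gene of the kinase that Ento inhibits, was higher with Ento+AZD, at 672 ± 88.5 against 451 ± 108 CPM (log2 fold change 0.59, SE 0.08, edgeR adjusted p = 0.000112). It was the 1 called of 4 target genes tested, against 40% of all genes. SYK was also higher with Ento alone (log2 fold change 0.47, SE 0.08, edgeR adjusted p = 0.004552). The combination was not separated from Ento (log2 fold change 0.12, SE 0.08, edgeR adjusted p = 0.3246).

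Within 500 kb of RASSF6 or NEBL, 9 genes were tested, and none within 500 kb of COBLL1. With Ento, 1 of the 9 differed, DNAJC1, which was lower, and with AZD 1 differed, MLLT10, which was lower too, against 8.32% and 22.2% of all genes. With Ento+AZD, MTHFD2L near RASSF6 was higher (log2 fold change 0.37, SE 0.10, edgeR adjusted p = 0.01011), and HNRNPRP1 (-0.46, SE 0.17, edgeR adjusted p = 0.04642) and DNAJC1 (-1.23, SE 0.26, edgeR adjusted p = 0.001974) near NEBL were lower, which makes 3 of 9 against 40% of all genes. EIF4BP2, a pseudogene within an intron of NEBL whose reads may be shared with its parent gene, had 15.04, 14.73, 16.3 and 15.4 CPM on average in the order DMSO, Ento, AZD and Ento+AZD. Without the replicate term, the genes differing between Ento+AZD and DMSO numbered 2 of the RASSF family, 1 of the Hippo pathway, 1 of the WH2-domain genes, 4 of the nebulin family and its filament partners (as with the term), 0 of the inhibitors' target genes and 1 of the neighbours.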

How the data were processed

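SU-DHL-4 RNA of 4 groups with 3 libraries each was measured by single-end sequencing. The authors trimmed reads with CutAdapt via Trim Galore, aligned them to GRCh38.p13 and counted them per gene with Rsubread. The deposited values are whole-number counts per gene, 46863 genes in all. The deposited log2 CPM values, TMM-normalized by the authors, served only as an alternative choice of genes.

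Counts were filtered with filterByExpr (minimum count 10, minimum total 15), scaled by TMM and tested with edgeR 4.0.16 (R 4.3.3) by the quasi-likelihood test with Benjamini-Hochberg adjustment, in 1 model of all 12 libraries with group and replicate number, taken here for the batch term of the study's model, which its methods do not define further. Same-numbered libraries deviated together (r 0.213 to 0.703 over 18 pairs). No libraries agreed within sampling noise (chi-square per degree of freedom 9.12 to 54.6). Positions used a pseudocount of 0.5, and likeness used log2 CPM with a prior count of 2. Named genes were the 4 genes, the 3 most like each, up to 10 others per direction of opposite response, list members differing with Ento+AZD, and neighbours. Genes and lists were chosen with earlier results of these data known. The fit was tested on simulated data. Alternatives were RLE size factors, no low-count filter, DESeq2 1.42.0, no replicate term, other pseudocounts and leaving out each library. Genomic positions came from GENCODE annotation of GRCh38.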

Additional observations from a re-analysis of the deposited data

How the results depend on the processing

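The 4 genes had 16 fitted comparisons, against DMSO, Ento and AZD and for interaction. Those for interaction are descriptions, and those against DMSO, Ento and AZD share the libraries that helped to choose the genes. RLE size factors and the gene choice of the deposited normalized table changed no call or direction among the 16. DESeq2 kept 13 and gave 2 of LOC107984408 no adjusted p. It lost NEBL against DMSO (log2 fold change -1.14, adjusted p = 0.1401). Without the replicate block 12 kept their call and direction. The other 4 kept their direction but were lost, NEBL at -1.11 against DMSO and -2.22 against Ento, and LOC107984408 at -1.48 against Ento and 1.86 against AZD. Without the low-count filter NEBL against AZD passed at 1.23 (edgeR adjusted p = 8.785e-05). The log2 fold change was nearly that of the main fit (1.24), whereas the SE was 0.26 instead of 0.47. The count of differing genes without the block was 2398 against DMSO (main 6736), 206 against Ento (3440) and 17 against AZD (2001). For interaction it was 278 without the filter and 7 with DESeq2, against 0. Genes higher with Ento and lower with AZD numbered 2 without the block and 13 with DESeq2, and the reverse 0 without the block. On linear CPM the position was 0.209 for RASSF6 and 0.210 for COBLL1. Of the lists, Hippo fell to 1, WH2 to 1, targets to 0 and neighbours to 1 called without the block. Causes were not tested.

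Leaving out 1 library at a time gave log2 fold changes against DMSO of -0.37 to 0.032 (reversed without Ento+AZD replicate 3) for RASSF6, -0.70 to -0.56 for COBLL1, -1.37 to -0.79 for NEBL and -0.73 to -0.22 for LOC107984408. Against Ento they were -2.39 to -1.83, -1.74 to -1.52, -2.39 to -1.83 and -1.75 to -1.23 in this order, and against AZD 2.14 to 2.93, 1.05 to 1.32, 0.84 to 2.29 and 1.29 to 2.27. The interaction was 0.12 to 0.90, 0.04 to 0.33, -0.24 to 1.22 and 0.27 to 1.25. Single-agent log2 fold changes with Ento were 1.70 to 2.24 for RASSF6, 0.90 to 1.12 for COBLL1, 0.71 to 1.396 for NEBL and 0.77 to 1.23 for LOC107984408, and with AZD -3.05 to -2.25, -1.95 to -1.68, -3.402 to -1.96 and -2.75 to -1.76. The count of differing genes was 4879 to 6765 against DMSO, 1402 (without Ento replicate 3) to 4083 against Ento, 595 (without AZD replicate 1) to 2613 against AZD and 0 to 213 (without DMSO replicate 2) for interaction. Genes higher with Ento and lower with AZD numbered 10 to 24, and the reverse 1 to 3. With 1 to 41 counts per library, depth limits LOC107984408, and NEBL in AZD had 1 to 37 counts.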
